A study of Mus musculus with 8 samples.

Results

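The RNA of mouse OT-I CD8+ T cells primed by lymph node resident CD8a+ dendritic cells (DC) was compared with that of OT-I cells primed by migratory CD11b+ DC. The libraries were chosen by the DC partner named in the labels, which gave 5 of the 8 RNA-sequencing libraries of the study: 3 with CD8a+ DC (CD8a DC group, replicates 1, 2 and 3) and 2 with CD11b+ DC (CD11b DC group, replicates 2 and 3). The other 3 libraries, with migratory CD103+ DC, entered the fit for its estimate of the spread and are given as context. In every group the T cells were of the C57BL/6 strain and carried the OT-I transgene, whose T cell receptor recognises an ovalbumin peptide. They had been cultured for 72 hours in plates with DC that bore antigen. The cells that had divided were then sorted, so undivided cells are outside the comparison in both groups. No label ties a library to its own culture or animal. P-values therefore describe only the variation among these samples, and that variation may be technical.

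Resident CD8a+ DC belong to the cDC1 lineage, which is known for presenting captured antigen on MHC class I and for priming CD8+ T cells. Migratory CD11b+ DC belong to the cDC2 lineage, carry antigen from tissue to the lymph node and are known chiefly for priming CD4+ T cells. A primed CD8+ T cell divides rapidly, and the genes of DNA replication and of mitosis rise in turn through each division. Interferons act on the same cell through STAT and IRF factors, which raise guanylate binding proteins, immunity-related GTPases and the machinery of MHC class I presentation.

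T cells from the CD8a DC group had higher levels of genes of DNA replication and mitosis and lower levels of interferon response and MHC class I genes than those from the CD11b DC group. Of 61 mitosis genes 37 rose and of 53 replication genes 20 rose, with 0 falling in either list. Of 25 interferon gamma response genes 16 fell, of 63 type I interferon response genes 16 fell and of 23 antigen processing genes 7 fell, with 0 rising in any of the 3 lists. Across all 18971 genes tested 374 were called (1.97%), of which 203 were higher (1.07%) and 171 lower (0.901%) in the CD8a DC group. A call here is an adjusted p under 0.05 by limma-trend on log2(normalized count + 1), with Benjamini-Hochberg adjustment over all genes tested, and "rose" and "fell" are used of called genes only. The median log2 fold change of all genes was -0.04. Scaling by library totals moved it to -0.09 and gave 166 higher and 214 lower genes of 380 called, against 203 and 171 with the deposited scaling.

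**Figure D1:**
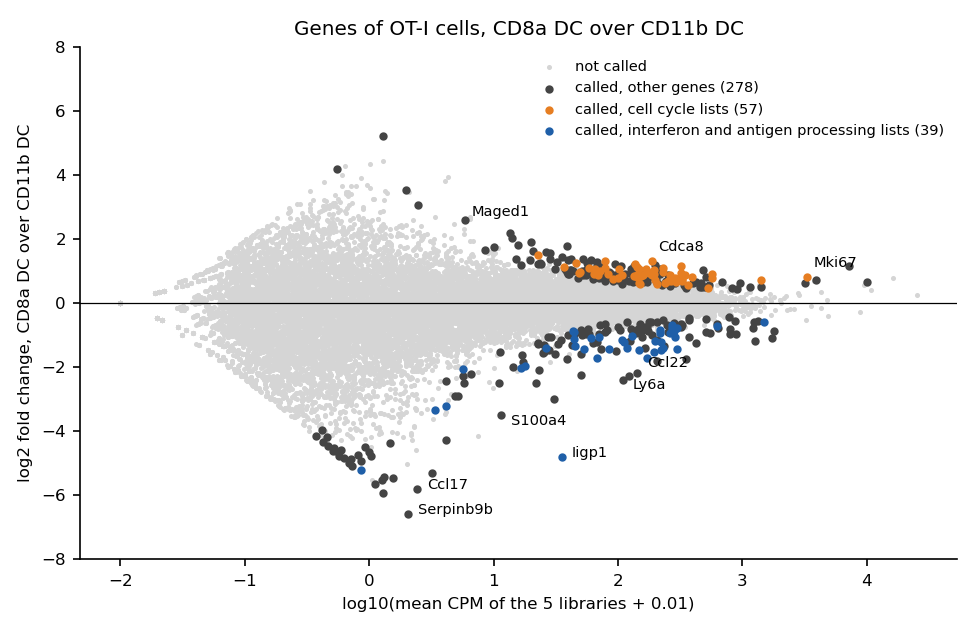
Each point is 1 of the 18971 genes tested. The x axis is the log10 of the mean CPM (counts per 1000000 reads) of the 5 libraries, plus 0.01, and the y axis the log2 fold change, CD8a DC over CD11b DC. Grey points are not called, orange points are called cell cycle genes, blue points are called interferon and antigen processing genes, and dark points are other called genes. Orange points lie above 0 and blue points below it.

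The number of calls rested on both CD11b DC libraries. Without replicate 2 or replicate 3 of that group limma-trend called 0 genes (1689 and 1810 at an unadjusted p under 0.05), and edgeR called 49 and 40. This holds for every call below, and in these fits the lowest adjusted p of any called gene named by the rule was 0.109. Leaving out 1 of the other 6 libraries left 222 to 537 calls, with the highest number without CD8a DC replicate 2. Of the 74 called genes that the naming rule picked, 45 remained called without each of those 6 libraries in turn, and 28 in a fit of the 5 libraries alone, which called 81 genes.

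Depth was 16293042, 21973391 and 18839769 reads in the CD8a DC libraries, against 20932607 and 17018778 in the CD11b DC libraries. Mitochondrially encoded genes took 9.31%, 11.8% and 9.12% of reads in the CD8a DC libraries, against 7.20% and 7.02% in the CD11b DC libraries, so these shares did not overlap. In a principal component analysis CD8a DC replicate 2 lay far from the rest, at 138 on the first principal component (20.9% of variance), where the other 7 libraries lay between -44.0 and 26.1. The libraries of the CD8a DC group correlated with each other at 0.931 to 0.942 and with the CD11b DC libraries at 0.928 to 0.942, and the CD11b DC libraries with each other at 0.952 (Pearson, across genes, log2 scale). The 12 T cell identity genes summed to 8506, 9084 and 7924 CPM in the CD8a DC group, against 8700.0 and 9989 CPM in the CD11b DC group, with 0 called by limma-trend (4 at an unadjusted p under 0.05), 0 by edgeR and 1 by DESeq2. Cd8a itself stood at 1501, 1652 and 1373 CPM, against 1862 and 2142 CPM (log2 fold change -0.36, adjusted p = 0.114, and 0.0249 without CD8a DC replicate 2).

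The 29 genes of the DC list summed to 659.8, 868 and 427 CPM in the CD8a DC group, against 1055 and 854 CPM in the CD11b DC group. Of 25 tested 0 rose and 3 fell (12%, against 0.901% of all genes), Ccl17, Ccl22 and Sirpa. A few members carried these sums. Ccr7, which T cells also express, averaged 319 CPM with CD8a DC, against 330.4 CPM with CD11b DC. Ccl22 lay between 31.7 and 86.1 CPM with CD8a DC, against 221 and 315 CPM with CD11b DC. Cst3 averaged 102 CPM with CD8a DC, against 114 CPM with CD11b DC, and Ccl5, also a T cell chemokine, 66.2 CPM with CD8a DC, against 82.9 CPM with CD11b DC. The sums therefore do not measure DC RNA. Genes that tell DC subsets apart lay near 0 and did not follow the labels as a set. Clec9a, a cDC1 receptor, had 1.84, 4.51 and 0.106 CPM after CD8a DC priming and 0 reads in the CD11b DC libraries. Sirpa, a receptor of cDC2, had 0 reads in the CD8a DC libraries, against 1.86 and 3.70 CPM after CD11b DC priming, at least 51.2-fold lower taking 3 reads over the group as the floor. Itgam, which encodes CD11b, had 0.491, 8.06 and 0.690 CPM with CD8a DC, against 2.82 and 0.764 CPM with CD11b DC. Its group means, 3.08 CPM with CD8a DC against 1.79 CPM, rested on CD8a DC replicate 2. The cDC1 genes Xcr1, Batf3, Naaa and Snx22 averaged 0.346, 0.615, 2.67 and 0.446 CPM with CD8a DC, against 0.826, 1.57, 5.19 and 0.755 CPM with CD11b DC. These means went against the labels, but the libraries of Xcr1 and Snx22 overlapped between the groups. Clec10a, Cd209a, Clec4a4 and Mgl2, genes of cDC2 and related cells, had 0 reads in both groups. In bulk RNA fewer cells of a type and less RNA per cell cannot be told apart.

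**Figure D2:**
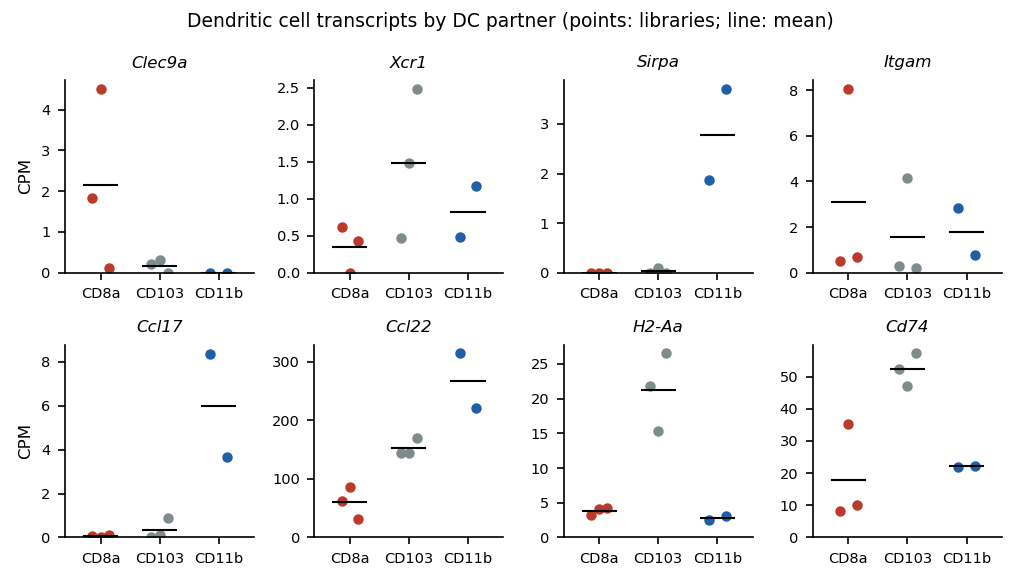
CPM of 8 DC transcripts in each library, with 1 panel per gene and its own y axis from 0. Points are libraries, horizontal lines are group means, and groups run CD8a DC (n = 3), CD103 DC (n = 3) and CD11b DC (n = 2). Clec9a reads are found mainly in the CD8a DC group and Sirpa, Ccl17 and Ccl22 are highest in the CD11b DC group, while Xcr1 and Itgam overlap between them.

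Other cell types gave sums that overlapped between the groups or were near 0. Macrophage and monocyte genes (14) summed to 14.5, 13.5 and 5.31 CPM in the CD8a DC group, against 13.9 and 7.99 CPM. B cell genes (12) summed to 1182, 1288 and 988 CPM, against 1183 and 1228 CPM. CD4 and regulatory T cell genes (4) gave 10.4, 7.42 and 13.5 CPM, against 12.7 and 10.3 CPM, and natural killer genes (6) gave 5.59, 8.97 and 2.81 CPM, against 7.26 and 7.34 CPM. Of these 4 lists 0 members were called by limma-trend (0 at an unadjusted p under 0.05), edgeR or DESeq2. Neutrophil genes (7) stayed under 1 CPM in each library, red cell genes (6) gave 1.72, 2.32 and 2.28 CPM, against 3.44 and 3.53 CPM, and stromal and epithelial genes (12) gave 228, 215 and 155 CPM, against 168 and 234 CPM, again with 0 called by each of the 3 tools and 0 at an unadjusted p under 0.05. The sum of 15 immediate early and heat shock genes was 1376, 1364 and 1796 CPM, against 1241 and 1239 CPM, with Jun the 1 member called.

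The promoters of 4 interferon response genes that fell are shown because they hold the interferon-stimulated response element in its tandem form, and those of 3 mitosis genes that rose because they hold the cell cycle homology region. Sequences are from RefSeq, GRCm38.p6, 80 bases on the strand of the gene, 5′ to 3′, with the motif in capitals. In the interferon set the capitals mark GAAA and GAAA with 2 bases of any kind between them, or the reverse complement, the element bound by IRF factors.
Igtp, chr11:58199487-58199566, plus strand: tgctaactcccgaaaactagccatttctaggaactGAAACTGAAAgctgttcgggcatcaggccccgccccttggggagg
Irgm2, chr11:58214878-58214957, plus strand: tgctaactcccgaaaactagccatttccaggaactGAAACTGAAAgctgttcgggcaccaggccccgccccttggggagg
Gbp7, chr3:142530248-142530327, plus strand: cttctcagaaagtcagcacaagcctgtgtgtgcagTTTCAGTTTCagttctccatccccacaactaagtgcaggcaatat
Tgtp1, chr11:48992279-48992358, minus strand: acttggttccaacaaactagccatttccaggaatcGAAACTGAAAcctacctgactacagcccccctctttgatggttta
Igtp and Irgm2, neighbours on chromosome 11 that encode immunity-related GTPases, carry nearly the same stretch. In the mitosis set the capitals mark 1 match of TTTGAA or its reverse complement. The window of Mki67 holds 2 matches, the other of which is in lower case in the stretch shown, and that of Kif15 holds 2, the other of which lies outside the stretch.
Mki67, chr7:135716433-135716512, minus strand: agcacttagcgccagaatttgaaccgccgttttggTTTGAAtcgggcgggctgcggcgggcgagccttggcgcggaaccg
Cdca8, chr4:124936868-124936947, minus strand: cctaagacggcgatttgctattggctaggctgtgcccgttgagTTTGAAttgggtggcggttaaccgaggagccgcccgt
Kif15, chr9:122951027-122951106, plus strand: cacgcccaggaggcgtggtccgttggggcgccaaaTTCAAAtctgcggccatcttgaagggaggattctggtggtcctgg

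The interferon element was found in the window from 250 bases before to 50 bases after the start in 17 of 23 called interferon genes with a RefSeq promoter, of 32 called (73.9%), against 3.99% of all 27025 genes and 21 of 43 interferon genes that were not called (48.8%). The STAT element TTCNNNGAA was found in 6 of the 23 (26.1%), against 9.55% of all genes and 20.9% of the interferon genes not called. Of 45 called cell cycle genes with a promoter, of 57 called, TTTGAA was found in 25 (55.6%), against 20.2% of all genes and 18 of 49 cell cycle genes not called (36.7%). CCAAT, bound by NF-Y, was found in 34 of the 45 (75.6%), against 41.1% of all genes and 63.3% of the cell cycle genes not called. The E2F motif GGCGGGAA was found in 2 (4.44%), against 2.52% of all genes and 12.2% of the cell cycle genes not called. Both strands were searched, and 1 stretch may count for several motifs. These are matches of letters and not measured sites.

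Mitosis genes were higher in the CD8a DC group almost without exception in direction. The 61 genes had a median log2 fold change of 0.75, against -0.04 for all genes, and 59 were above 0. For 59 of the 61 each CD8a DC library lay above both CD11b DC libraries, against 10.9% of all genes. Mki67 (chr7:135689784-135716361, minus strand), which encodes a proliferation antigen that coats mitotic chromosomes, stood at 3932, 3610.1 and 4368 CPM after CD8a DC priming, against 2361 and 2261 CPM after CD11b DC priming. The groups did not overlap, and the log2 fold change was 0.83 (SE 0.09, adjusted p = 0.000473). Libraries of the CD103 DC group lay between, at 3306, 3226 and 3177 CPM.

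Genes of the chromosomal passenger complex and of the kinetochore, which attach chromosomes to the spindle, rose together. Cdca8, the complex subunit borealin (chr4:124918465-124939311, minus strand), stood at 212, 259 and 267 CPM, against 84.8 and 122 CPM (log2 fold change 1.32, SE 0.17, adjusted p = 0.00179). Its partners Incenp, Birc5 and Aurkb had log2 fold changes of 0.95, 0.76 and 0.82. Ndc80, the microtubule-binding kinetochore subunit (chr17:71496100-71526857, minus strand), stood at 179, 169 and 191 CPM, against 83.1 and 86.2 CPM (log2 fold change 1.13, SE 0.15, adjusted p = 0.00185). All 4 subunits of the NDC80 complex rose, with Nuf2, Spc24 and Spc25 at 0.86, 1.07 and 0.95. Kif15, a spindle kinesin (chr9:122951046-123018733, plus strand), stood at 394, 349 and 442 CPM, against 209.6 and 218 CPM (log2 fold change 0.93, SE 0.12, adjusted p = 0.00185). In each of these genes the lowest CD8a DC library lay above the higher CD11b DC library. The spindle kinase Aurka and the cohesin protector Sgo2a stood beside Cdca8 as the largest rises of the list, at 1.33 and 1.26.

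The drivers of mitotic entry moved the same way. Foxm1, the transcription factor of mitotic genes, stood at 225, 218 and 265 CPM, against 119 and 140.4 CPM (log2 fold change 0.91, adjusted p = 0.00447), and Cdk1, the kinase that starts mitosis, at 106, 121 and 128 CPM, against 61.5 and 80.3 CPM (0.80, adjusted p = 0.0261). Cyclins Ccna2 and Ccnb2 had log2 fold changes of 0.67 and 1.04, and Top2a, the topoisomerase that untangles chromosomes, 0.71. The condensin genes Ncapd2, Ncapg and Ncaph had 0.79, 0.84 and 0.87. In the opposite direction, Ccnd2, the D-type cyclin of G1 (chosen after its values were seen), stood at 294, 241 and 234 CPM, against 406 and 454 CPM (log2 fold change -0.70, adjusted p = 0.00965).

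**Figure D3:**
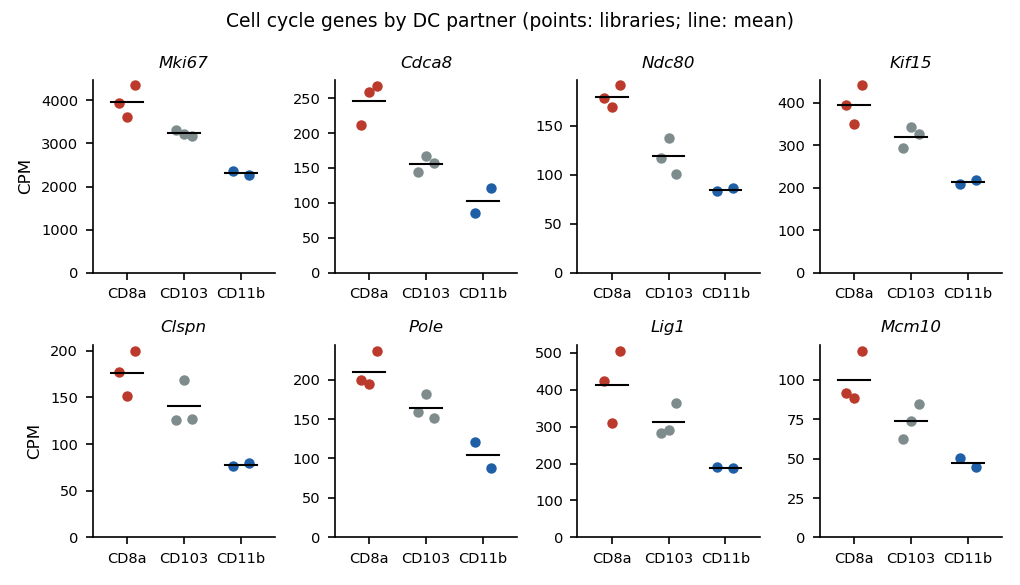
CPM of 4 mitosis and 4 replication genes in each library, with 1 panel per gene and its own y axis from 0. Points are libraries, lines are group means, and groups run CD8a DC (n = 3), CD103 DC (n = 3) and CD11b DC (n = 2). In each panel the 3 CD8a DC points lie above both CD11b DC points.

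Replication genes showed the same direction in all 53 members, with a median log2 fold change of 0.79. For 44 of them each CD8a DC library lay above both CD11b DC libraries, against 10.9% of all genes. Clspn, which encodes claspin, the adaptor of the replication checkpoint (chr4:126556935-126593903, plus strand), stood at 177, 151 and 200.3 CPM after CD8a DC priming, against 76.0 and 79.3 CPM after CD11b DC priming (log2 fold change 1.22, SE 0.16, adjusted p = 0.00185). Pole, the catalytic subunit of leading-strand polymerase epsilon (chr5:110286306-110337474, plus strand), stood at 199, 194 and 237 CPM, against 121 and 87.6 CPM (1.07, SE 0.16, adjusted p = 0.00392). Lig1, the ligase that joins Okazaki fragments (chr7:13277283-13311433, plus strand), stood at 422, 310.1 and 505 CPM, against 190.1 and 187 CPM (1.15, SE 0.17, adjusted p = 0.00396). Lig1 overlaps a gene on the opposite strand, and the strand setting of the counting is not given in the sources used here. Mcm10, which helps to activate the helicase, had a log2 fold change of 1.11, beside Mcm5 and Mcm6 of the helicase itself at 1.10 and 0.86. Dscc1, a subunit of a clamp loader, had the largest, at 1.51 (33.1, 22.8 and 35.8 CPM, against 9.27 and 12.8 CPM; adjusted p = 0.0176, and up to 0.0592 with 1 CD8a DC or CD103 DC library left out). Nucleotide synthesis genes of the list rose too, with Rrm1, Rrm2 and Tyms at 0.81, 0.96 and 1.08.

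Counts in both lists moved with the libraries. Without CD8a DC replicate 2 42 mitosis and 31 replication genes were called, without CD8a DC replicate 1 35 and 13, and in the fit of the 5 libraries alone 13 and 4. The 48 histone genes tested had a median log2 fold change of 0.41 with 0 calls by limma-trend (5 at an unadjusted p under 0.05), 0 by edgeR and 1 by DESeq2. Median log2 fold changes against the CD103 DC group, given as values from comparisons that share libraries, were 0.30 for mitosis and 0.34 for replication in the CD8a DC group over the CD103 DC group, and 0.44 and 0.43 in the CD103 DC group over the CD11b DC group.

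**Figure D4:**
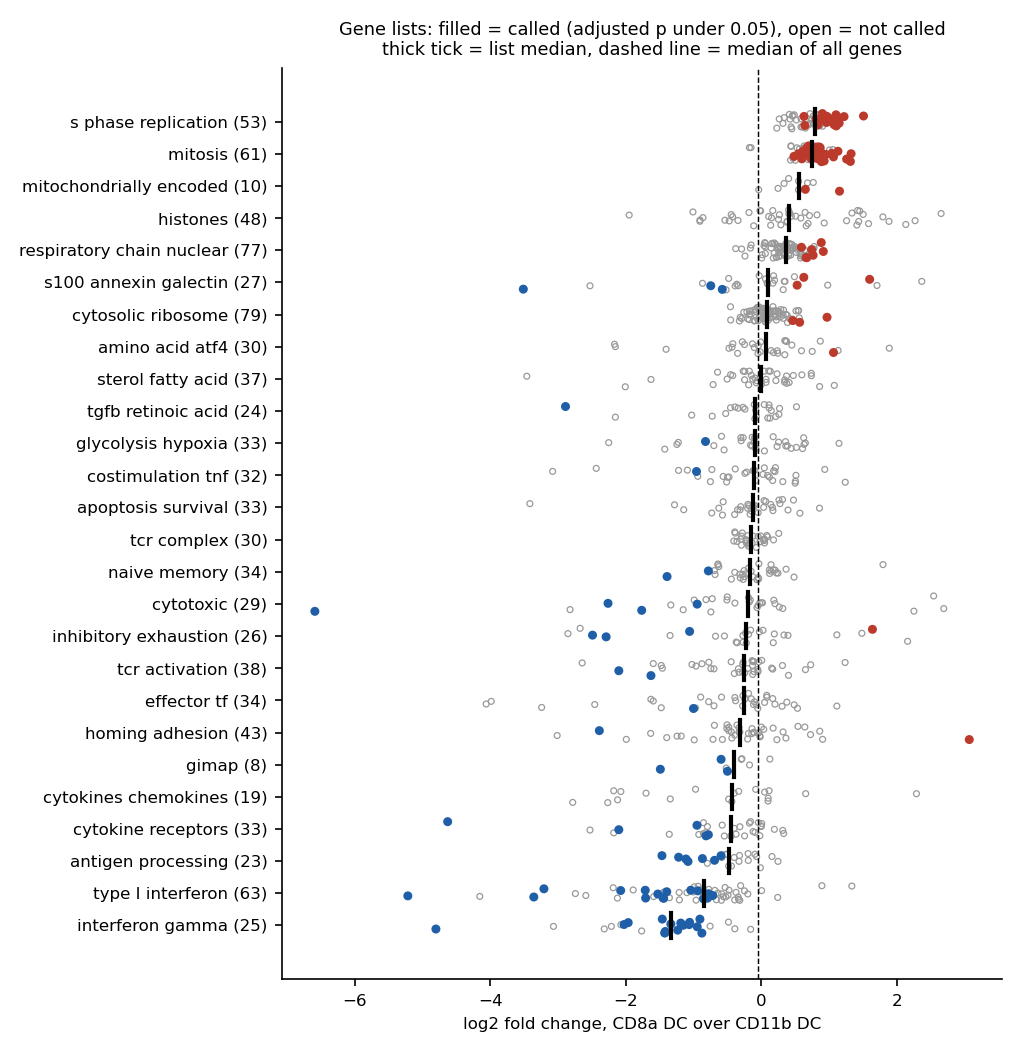
Log2 fold change, CD8a DC over CD11b DC, of the tested members of the 26 functional gene lists, ordered by their medians, with the number tested in brackets. Filled points are called (red above 0, blue below), open points are not, thick ticks are list medians and the dashed line is the median of all genes at -0.04. The replication and mitosis lists lie at the high end and the 2 interferon lists and the antigen processing list at the low end.

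Interferon gamma response genes were lower in the CD8a DC group in all 25 members tested, with a median log2 fold change of -1.33. For 23 of the 25 each CD8a DC library lay below both CD11b DC libraries, against 17.2% of all genes. Iigp1, an immunity-related GTPase that attacks the vacuoles of intracellular pathogens, stood at 4.11, 1.14 and 4.51 CPM after CD8a DC priming, against 67.0 and 99.4 CPM after CD11b DC priming. It was 27.9-fold lower (log2 fold change -4.80, SE 0.46, adjusted p = 0.000215), and 18.3-fold lower without CD8a DC replicate 2. Igtp, a related GTPase whose promoter is shown above (chr11:58199556-58207591, plus strand), stood at 215, 155 and 153 CPM, against 434 and 526 CPM (log2 fold change -1.42, SE 0.16, adjusted p = 0.000473). Its gene span overlaps that of Irgm2 (-1.19) on the same strand. The GTPases Tgtp1, Tgtp2 and Ifi47 had -1.96, -1.33 and -0.88, with Tgtp1 and Tgtp2 so alike that reads may be split between them.

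Guanylate binding proteins, GTPases that gather on damaged membranes and pathogen vacuoles, made up 6 of the 16. Gbp4 (chr5:105115767-105139586, minus strand) stood at 138, 135 and 109 CPM, against 361 and 362 CPM (log2 fold change -1.46, SE 0.14, adjusted p = 0.000202). Gbp9 stood at 146, 154 and 107 CPM, against 352 and 392 CPM (log2 fold change -1.42, adjusted p = 0.000727), but Gbp4, Gbp8 and Gbp9 overlap on the genome and resemble one another. Gbp7 stood apart from that cluster on chromosome 3, at 77.5, 80.6 and 51.9 CPM, against 159 and 227 CPM (-1.42, adjusted p = 0.00370). Neither group overlapped the other in any of these genes. Nlrc5, the transactivator of MHC class I genes, stood at 159, 151 and 159 CPM, against 306 and 318 CPM (-0.94, adjusted p = 0.00248). Cd274, the inhibitory ligand PD-L1, stood at 42.2, 59.2 and 42.5 CPM, against 124 and 84.1 CPM (-1.06, adjusted p = 0.0153, and 0.0535 without CD8a DC replicate 1).

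Of 23 antigen processing genes 7 fell (30.4%, against 0.901% of all genes) and 16 were not called. The 7 were 6 MHC class I heavy chain genes and Tap1. The count was 4 without CD103 DC replicate 1 and 3 in the fit of the 5 libraries alone. H2-Q6, a nonclassical class I heavy chain (chr17:35424850-35430055, plus strand), stood at 88.1, 88.7 and 78.7 CPM, against 239.7 and 247 CPM (log2 fold change -1.47, SE 0.13, adjusted p = 0.000202). H2-Q4 and H2-Q7 had -1.08 and -1.22, and these genes resemble one another closely enough for reads to be split. H2-K1, a classical class I heavy chain (chr17:33996017-34000333, minus strand), stood at 1194, 1337 and 1159 CPM, against 1892 and 1942 CPM (-0.59, SE 0.10, adjusted p = 0.00719). Tap1, a subunit of the peptide transporter, had -0.69 (adjusted p = 0.0181), and H2-T22 and H2-T24 had -0.87 and -1.11. The median of the 23 antigen processing genes was -0.48.

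Type I interferon response genes had a median log2 fold change of -0.85 over 63 members. Of these 16 fell (25.4%, against 0.901% of all genes) and 47 were not called. Xaf1, a proapoptotic factor induced by interferon (chr11:72301629-72313733, plus strand), stood at 40.7, 34.0 and 30.2 CPM, against 103 and 134 CPM (-1.71, SE 0.20, adjusted p = 0.000727). The antiviral genes Isg15, Rsad2 and Mx1 lay low in both groups. Rsad2, which encodes viperin, stood at 0.491, 0.592 and 0.902 CPM, against 6.31 and 8.46 CPM (-3.36, adjusted p = 0.0327), and Isg15, a ubiquitin-like modifier, at 1.78, 1.41 and 0.212 CPM, against 6.93 and 10.4 CPM (-3.21, adjusted p = 0.0407). Isg15 was 9.24-fold lower, and 5.01-fold lower without CD8a DC replicate 3. With 1 CD8a DC or CD103 DC library left out the adjusted p reached 0.0723 for Rsad2, and the call of Isg15 was lost too. Lgals3bp, Ifit1bl1 and Slfn8 had -1.44, -1.45 and -1.04, and their calls remained without each of those libraries. The number of members called was 24 without CD8a DC replicate 2, 9 to 13 without 1 CD103 DC library and 4 in the fit of the 5 libraries alone, where 10 members of the interferon gamma list were called.

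Ifng, which encodes interferon gamma, stood at 0.123, 0 and 1.80 CPM after CD8a DC priming and had 0 reads in the CD11b DC libraries (adjusted p = 0.482), and at 2.82, 2.82 and 2.63 CPM after CD103 DC priming. DESeq2 called it (adjusted p = 0.0437), and its adjusted p in the other fits ran from 0.155 without CD8a DC replicate 2 to 0.798 without CD8a DC replicate 3. Of the 19 cytokine and chemokine genes tested 0 were called by limma-trend (2 at an unadjusted p under 0.05), 0 by edgeR and 2 by DESeq2. The chemokine genes Ccl17 and Ccl22, which fell, are in the DC list and not in this one. Of the DC list Ccl17, Ccl22 and Sirpa fell beside the interferon lists and the other 22 tested members were not called, and their part in that result was not tested. Against the CD103 DC group, in comparisons that share libraries, the median log2 fold change of the interferon gamma list was -0.81 in the CD8a DC group over the CD103 DC group and -0.38 in the CD103 DC group over the CD11b DC group.

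**Figure D5:**
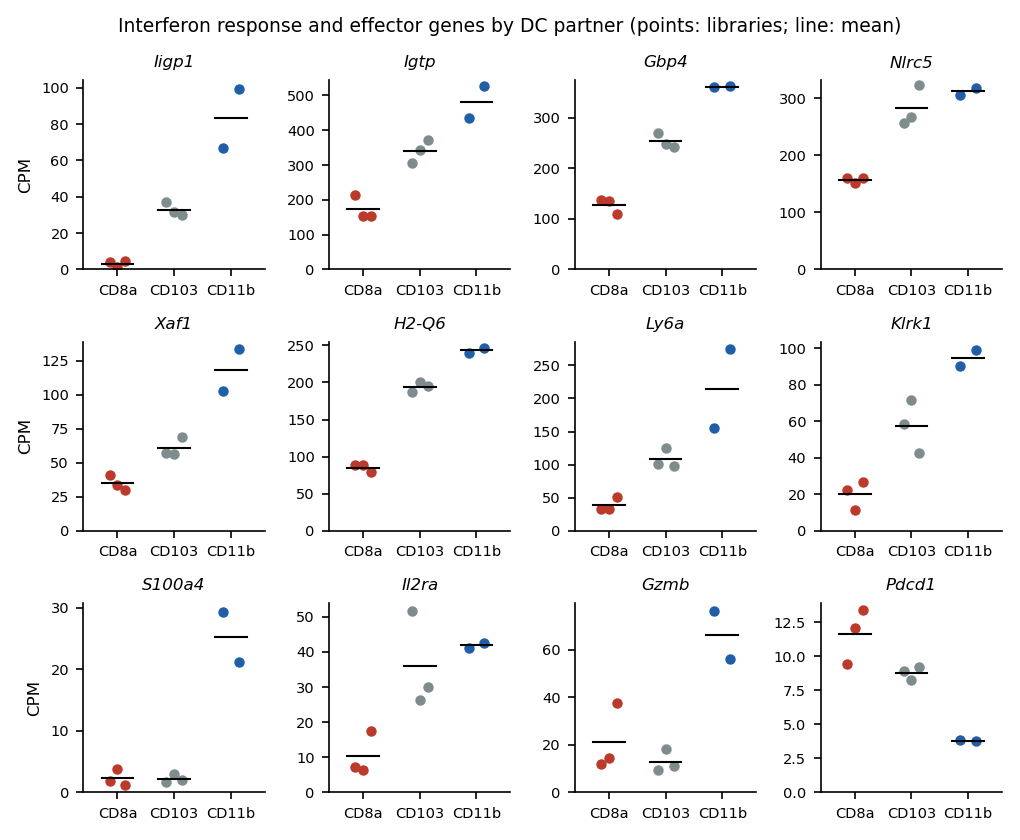
CPM of 6 interferon and antigen processing genes and 6 further T cell genes in each library, with 1 panel per gene and its own y axis from 0. Points are libraries, lines are group means, and groups run CD8a DC (n = 3), CD103 DC (n = 3) and CD11b DC (n = 2). The CD8a DC points lie below both CD11b DC points in each panel except Pdcd1, where they lie above.

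Of 29 cytotoxic genes 4 fell in the CD8a DC group (13.8%, against 0.901% of all genes) and 0 rose. The number that fell was 2 without CD103 DC replicates 1 or 2 and in the fit of the 5 libraries alone. For 10 of the 29 each CD8a DC library lay below both CD11b DC libraries, against 17.2% of all genes. For 3 each lay above, against 10.9% of all genes. The list median was -0.19, against -0.04 for all genes. Klrk1, the activating receptor NKG2D (chr6:129610323-129623864, minus strand), stood at 22.4, 11.6 and 26.6 CPM after CD8a DC priming, against 90.3 and 99.2 CPM after CD11b DC priming. The groups did not overlap, and the log2 fold change was -2.26 (SE 0.30, adjusted p = 0.00210). Serpinb9b, a granzyme inhibitor of the serpin family, had 0 reads in the CD8a DC libraries, against 5.06 and 5.11 CPM, at least 96.8-fold lower taking 3 reads over the group as the floor (adjusted p = 0.00644). Tnfsf10, the death ligand TRAIL, had -0.95 (adjusted p = 0.0282, up to 0.0648 without 1 CD8a DC or CD103 DC library).

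Gzmb, a protease of cytotoxic granules (chr14:56258838-56262260, minus strand), stood at 11.8, 14.3 and 37.7 CPM, against 76.2 and 55.9 CPM (log2 fold change -1.76, SE 0.42, adjusted p = 0.0474). That call was lost without CD8a DC replicates 1 or 2 or any CD103 DC library (adjusted p up to 0.127), with edgeR and with either other pseudocount. Gzma, a related granzyme, lay between 1.5 and 9.45 CPM after CD8a DC priming, against 6.45 and 17.0 CPM, with overlapping groups (adjusted p = 0.511). Prf1, the pore-forming protein that admits granzymes, stood at 8.72, 5.42 and 4.25 CPM, against 3.01 and 9.17 CPM (adjusted p = 0.921). The transcription factors Tbx21 and Eomes had log2 fold changes of -0.27 and 0.49 (adjusted p = 0.786 and 0.226). Of 34 effector transcription factors 1 fell (4 without CD8a DC replicate 3), which is 2.94%, against 0.901% of all genes. This was Rora (39.2, 40.5 and 28.7 CPM, against 76.4 and 72.2 CPM, adjusted p = 0.0148).

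Of 33 cytokine receptors tested 5 fell (15.15%, against 0.901% of all genes), 0 rose and 28 were not called. The list median was -0.44. The number that fell was 3 without CD8a DC replicate 1 and 0 in the fit of the 5 libraries alone. Il2ra, the high-affinity interleukin 2 receptor chain that activated T cells display (chr2:11642807-11693193, plus strand), stood at 7.37, 6.42 and 17.4 CPM, against 41.3 and 42.4 CPM (log2 fold change -2.10, SE 0.39, adjusted p = 0.0128). Its ligand gene Il2 was at or under 0.382 CPM in each library of both groups. Il12rb2, the inducible chain of the interleukin 12 receptor, stood at 74.4, 92.8 and 120.2 CPM, against 202 and 175 CPM (-0.95, adjusted p = 0.0148), but its span overlaps the abundant gene Serbp1 on the opposite strand. Il4ra and Il7r, receptor chains for interleukins 4 and 7, had -0.81 and -0.78 (adjusted p = 0.0161 and 0.0233, up to 0.0566 and 0.0588 with 1 CD8a DC or CD103 DC library left out). Il1r1, the signalling receptor of interleukin 1, had 0 reads in the CD8a DC libraries, against 0.908 and 1.76 CPM, at least 24.6-fold lower. It had 49 reads over the CD11b DC libraries and 1 over the CD103 DC libraries, and the part of DC RNA in this difference was not tested.

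Targets of cytokine signalling and checkpoint genes split in direction. Cish, a feedback inhibitor induced by STAT5, stood at 1.35, 3.19 and 1.49 CPM after CD8a DC priming, against 13.9 and 8.81 CPM after CD11b DC priming (log2 fold change -2.49, SE 0.50, adjusted p = 0.0202). Socs2, another such inhibitor, stood at 2.33, 3.14 and 1.11 CPM, against 14.6 and 7.46 CPM (-2.29, SE 0.54, adjusted p = 0.0459). Neither gene's groups overlapped, and with 1 CD8a DC or CD103 DC library left out the adjusted p reached 0.0510 for Cish and 0.0992 for Socs2. Pdcd1, the inhibitory receptor PD-1 (chr1:94038305-94052553, minus strand), was the 1 of 26 inhibitory genes that rose, while Cish, Socs2 and Cd274 fell (0 members fell without CD8a DC replicate 1). These shares were 3.85% higher and 11.5% lower, against 1.07% and 0.901% of all genes. Pdcd1 stood at 9.45, 12.1 and 13.4 CPM, against 3.82 and 3.76 CPM (1.64, SE 0.37, adjusted p = 0.0329). Its groups did not overlap, but the call was lost without CD8a DC replicates 2 or 3 or any CD103 DC library (adjusted p up to 0.0901). Among 38 T cell receptor activation genes 2 fell (5.26%, against 0.901% of all genes). The number was 5 without CD8a DC replicate 3 and 0 in the fit of the 5 libraries alone. The 2 were Il2ra and Jun, a subunit of AP-1. Jun stood at 7.79, 9.19 and 10.2 CPM, against 27.3 and 30.7 CPM (log2 fold change -1.63, adjusted p = 0.0120). The 30 genes of the receptor complex had 0 calls by limma-trend (6 at an unadjusted p under 0.05), 0 by edgeR and 3 by DESeq2. Of 32 costimulation genes 1 fell (3.125%, against 0.901% of all genes). This was Tnfsf8, the CD30 ligand (-0.96, adjusted p = 0.0202, up to 0.0645 with 1 CD8a DC or CD103 DC library left out).

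Of 43 homing genes 1 rose and 1 fell (2.33% each), against 1.07% and 0.901% of all genes. Ly6a, the surface protein Sca-1 that interferons induce (chr15:74994877-74998031, minus strand), stood at 32.7, 32.9 and 50.8 CPM after CD8a DC priming, against 155 and 274 CPM after CD11b DC priming (log2 fold change -2.39, SE 0.24, adjusted p = 0.000247). Ccr8, a chemokine receptor of skin T cells, stood at 3.01, 3.32 and 4.94 CPM, against 0.860 and 0.176 CPM (3.07, SE 0.66, adjusted p = 0.0286). Ccr8 was 8.41-fold higher, 16.8-fold without CD11b DC replicate 2 and 4.22-fold without CD11b DC replicate 3, and its call was lost without CD8a DC replicates 1 or 3 or any CD103 DC library (adjusted p up to 0.0799). The gut homing genes Itga4 and Ccr9 were not called. Itga4, the alpha 4 integrin, stood at 614, 431 and 421 CPM, against 659 and 457 CPM, and Ccr9 at 95.4, 101 and 41.1 CPM, against 69.5 and 39.1 CPM, with overlapping groups (adjusted p = 0.792 and 0.608).

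Receptors of lymph node recirculation were not called either. Ccr7, S1pr1 and the regulator Klf2 had log2 fold changes of -0.04, -0.19 and 0.25, all with overlapping groups (adjusted p = 0.966, 0.681 and 0.737). Cxcr3, a receptor for interferon-induced chemokines, stood at 74.6, 87.0 and 62.6 CPM, against 107 and 122 CPM (-0.57, adjusted p = 0.120). Its groups did not overlap. DESeq2 called it (adjusted p = 0.0317), as did limma-trend without CD8a DC replicate 2 (adjusted p = 0.0318). Itgae, the CD103 integrin chain, stood at 414, 599 and 194 CPM, against 284 and 319.6 CPM (0.32, adjusted p = 0.721). It was called by limma-trend without CD8a DC replicate 3 (adjusted p = 0.0238). In the naive and memory list 2 of 34 genes fell (5.88%, against 0.901% of all genes). The number was 4 without CD8a DC replicate 2 and 1 without CD103 DC replicates 1 or 2. The 2 were Il7r and Txnip, an inhibitor of thioredoxin and glucose uptake. Txnip stood at 116, 89.1 and 90.8 CPM, against 249.8 and 283 CPM (-1.39, SE 0.15, adjusted p = 0.000369). Tcf7, the factor of naive and stem-like cells, stood at 2202, 2516 and 1935 CPM, against 2079 and 2051 CPM (adjusted p = 0.657). Of 24 genes of TGF-beta and retinoic acid response 1 fell (4.17%, against 0.901% of all genes). This was Vdr, the vitamin D receptor (0.921, 1.05 and 2.28 CPM, against 7.88 and 13.6 CPM). Its log2 fold change was -2.89 (adjusted p = 0.0336, up to 0.0787 with 1 CD8a DC or CD103 DC library left out).

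Of 77 nuclear genes of the respiratory chain 7 rose (9.09%, against 1.07% of all genes), 0 fell and 70 were not called. The list median was 0.37, with 72 members above 0. The number that rose was 4 without CD8a DC replicate 1 or CD103 DC replicate 2 and 0 in the fit of the 5 libraries alone. Ndufa4, a subunit of the chain (chr6:11900292-11907497, minus strand), stood at 134, 175 and 172 CPM after CD8a DC priming, against 86.4 and 87.8 CPM after CD11b DC priming (log2 fold change 0.92, SE 0.15, adjusted p = 0.00765). Cox6a1 of cytochrome oxidase, Atp5g3 of ATP synthase and Ndufa1 of complex I had 0.74, 0.67 and 0.77. Of 10 mitochondrially encoded genes tested 2 rose (20%, against 1.07% of all genes). The number was 6 without CD8a DC replicate 3 and 0 without CD103 DC replicates 1 or 2. The 2 were mt-Nd1 (0.65, adjusted p = 0.0239) and the ribosomal RNA mt-Rnr1 (1.16, adjusted p = 0.0434). The call of mt-Rnr1 was lost with library total scaling, and with 1 CD8a DC or CD103 DC library left out the adjusted p reached 0.0633 for mt-Nd1 and 0.102 for mt-Rnr1. The share of reads from these genes was higher in each CD8a DC library, as given above, and its part in this result was not tested.

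Psat1, an enzyme of serine synthesis, rose as the 1 of 30 amino acid genes (3.33%, against 1.07% of all genes). It stood at 233, 234 and 357 CPM, against 141 and 127 CPM (log2 fold change 1.06, adjusted p = 0.00564). Slc2a3, the glucose transporter GLUT3, fell as the 1 of 33 glycolysis genes (3.03%, against 0.901% of all genes). It stood at 124, 125 and 99.2 CPM, against 194 and 234 CPM (log2 fold change -0.84, adjusted p = 0.0109). Of 79 cytosolic ribosomal protein genes 3 rose (3.80%, against 1.07% of all genes), with a list median of 0.09. The 3 were Rpl27a (0.97, adjusted p = 0.00943), Rpl8 (0.47, adjusted p = 0.0261) and Rps2 (0.57, adjusted p = 0.0459). The count was 1 without CD8a DC replicate 1 or any CD103 DC library. The calls of Rpl8 and Rps2 were lost with single CD8a DC or CD103 DC libraries left out (adjusted p up to 0.0725 and 0.114), and that of Rps2 with library total scaling. The 37 sterol and fatty acid genes and the 33 apoptosis genes had 0 calls by limma-trend (5 and 8 at an unadjusted p under 0.05), 0 in either list by edgeR and 1 and 2 by DESeq2.

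Of the 8 Gimap genes, GTPases of lymphocyte survival, 3 fell (37.5%, against 0.901% of all genes). The count was 2 without CD8a DC replicates 1 or 3 or any CD103 DC library. It was 4 without CD8a DC replicate 2 and 0 in the fit of the 5 libraries alone. Gimap7 stood at 36.6, 60.7 and 67.7 CPM, against 130.3 and 184 CPM (log2 fold change -1.49, SE 0.25, adjusted p = 0.00719), and Gimap4 and Gimap6 had -0.59 and -0.50 (adjusted p = 0.00822 and 0.0401, with Gimap6 up to 0.0853 when 1 CD8a DC or CD103 DC library was left out). Of 27 S100, annexin and galectin genes 3 rose and 3 fell (11.1% each), against 1.07% and 0.901% of all genes. S100a4, an EF-hand protein found in effector and memory T cells (chr3:90603771-90606045, plus strand), stood at 1.84, 3.73 and 1.27 CPM after CD8a DC priming, against 29.4 and 21.2 CPM after CD11b DC priming (-3.51, SE 0.58, adjusted p = 0.00658). The CD103 DC libraries were at 1.72, 2.97 and 1.99 CPM, near the CD8a DC level. Capg, an actin-capping protein, rose (28, 37.8 and 40.7 CPM, against 16.1 and 8.87 CPM; log2 fold change 1.60, adjusted p = 0.00899), beside Vim (0.53) and Lgals1 (0.63). The 3 rises of the list came to 1 without CD8a DC replicate 1 or CD103 DC replicates 1 or 2, and the adjusted p of Vim reached 0.0782 in these fits. Lgals8 and Ahnak had -0.74 and -0.57.

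The largest folds outside these lists were in genes of varied function. Among those higher in the CD8a DC group, Maged1, a MAGE family adaptor (chrX:94535474-94542143, minus strand), stood at 11.2, 8.37 and 7.11 CPM, against 1.67 and 1.23 CPM (log2 fold change 2.61, SE 0.42, adjusted p = 0.00644). Cd24a, a surface sialoglycoprotein, stood at 31.2, 34.0 and 20.1 CPM, against 7.83 and 7.34 CPM (1.91, SE 0.29, adjusted p = 0.00500). Serpine2, a secreted protease inhibitor, Slco4a1, an organic anion transporter, and Gch1, the first enzyme of tetrahydrobiopterin synthesis, had 2.18, 2.04 and 1.75. Gucy2e, a guanylate cyclase, had 1.79, and Lsm11, a factor of histone mRNA processing, 1.61 (26.2, 30.0 and 29.0 CPM, against 8.98 and 10.2 CPM). Zfp473, a zinc finger factor of the same processing, had 1.81 but overlaps Vrk3 on the opposite strand, and Rad51c, a recombination protein, had 1.58. Slco4a1 was 4.12-fold higher, 2.69-fold without CD11b DC replicate 2 and 6.31-fold without CD11b DC replicate 3. Gucy2e was 3.45-fold higher in the full fit, 5.58-fold without CD11b DC replicate 2 and 2.14-fold without CD11b DC replicate 3. With single CD8a DC or CD103 DC libraries left out the adjusted p reached 0.0705 for Serpine2, 0.0765 for Slco4a1, 0.0580 for Gch1, 0.0583 for Gucy2e and 0.0776 for Rad51c.

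Among genes lower in the CD8a DC group, Art2b, an ADP-ribosyltransferase of the T cell surface (chr7:101576970-101585600, minus strand), stood at 9.94, 5.83 and 6.79 CPM, against 42.5 and 44.7 CPM (log2 fold change -2.51, SE 0.33, adjusted p = 0.00210). Nrp2, a semaphorin and VEGF receptor (chr1:62703285-62818695, plus strand), stood at 13.7, 4.87 and 6.21 CPM, against 84.6 and 44.7 CPM (-2.99, SE 0.43, adjusted p = 0.00334). Both genes kept their groups apart. The chemokine Ccl17, which DC secrete, stood at 0.0614, 0 and 0.106 CPM, against 8.36 and 3.64 CPM (adjusted p = 0.0270), and Ccl22, a related chemokine, at 62.4, 86.1 and 31.7 CPM, against 315 and 221 CPM (-2.20, adjusted p = 0.00314). Both are members of the DC list, and the part of DC RNA in these differences was not tested. Ccl17 rested on 3 reads over the CD8a DC libraries, against 237 reads over the CD11b DC libraries, a ratio of CD11b DC over CD8a DC of 119 (95% counting interval 40.2 to 581). Its fitted fold moved by over 1.5 times without either CD11b DC library, and its adjusted p reached 0.0588 without CD8a DC replicate 1. H2-M2, a class I gene, stood at 1.84, 0 and 0 CPM, against 8.69 and 5.52 CPM (adjusted p = 0.0400), but edgeR and DESeq2 did not call it. It was 39.5-fold lower, and 131-fold, 21.8-fold and 21.8-fold without CD8a DC replicates 1, 2 and 3. Ankrd33b, an ankyrin repeat gene, had -2.90 (adjusted p = 0.0180, up to 0.0508 without 1 CD8a DC or CD103 DC library).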

How the data were processed

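OT-I RNA from 8 libraries was sequenced and aligned with STAR 2.4.2a to GRCm38, per the submitters' processing notes, which also name DESeq2. Which counter, annotation and strand mode they used is not given in the sources used here. The deposited table holds a normalized count signal per gene and library (gene counts divided by size factors), and the authors also deposited log2 fold values, a linear fold ratio and p-value columns for each comparison, and the GC percent of each gene. From the deposited normalized counts whole reads were recovered (within 0.1 read) and expressed as counts per 1000000 recovered reads (CPM).

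Group means were compared by limma-trend on log2(normalized count + 1), using R 4.3.3 with limma 3.58.1, over 8 libraries and 5 residual degrees of freedom, with Benjamini-Hochberg adjustment. Genes averaging under 1 normalized count were left out, which kept 18971 of 43432. The method was tested on simulated data. Alternatives used edgeR 4.0.16, DESeq2 1.42.0, other pseudocounts, filters and scaling, the 5 libraries alone and leaving out each library; the edgeR fits without single libraries were chosen after seeing the data. Read totals were 16293042 to 21973391, and counting floors cover counting error only.

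The genes named are the 12 largest called folds in each direction whose groups did not overlap and whose higher group averaged 5 CPM or more, up to 4 called members of each list, and well-known T cell genes; other list members are named as such. The 26 functional and 10 marker lists were chosen with earlier results of these data known. Gbp5, Gbp6, Gbp10, Hist1h2bh, Hist1h2bm and Hist2h2bb were not analysed here. Same-numbered replicates correlated at 0.0226 and 0.0198 in their deviations from the group means, under the 0.1 set as the threshold for pairing. With 2 CD11b DC libraries the deviations of that group mirror each other, so this check cannot settle whether the numbers pair the libraries. Results for a few genes are not reported here.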

Additional observations from a re-analysis of the deposited data

How the results depend on the processing

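The count of 374 called genes (203 higher, 171 lower in the CD8a DC group) stayed within 1.5 times under edgeR and pseudocounts of 0.5 and 5. The same held for both other filters, library total scaling and the replicate block. The replicate block gave 279 (150 higher, 129 lower), and of the 74 called named genes 59 remained called and 15 did not. DESeq2 on the recovered reads called 948 (550 higher, 398 lower), and the 5 libraries alone, with 3 residual degrees of freedom, called 81 (38 higher, 43 lower). Leaving out each library in turn, limma-trend and edgeR gave 0 to 576 genes (0 to 311 higher, 0 to 265 lower), and limma-trend 0 to 537 (0 to 276 higher, 0 to 261 lower). Without a CD11b DC library edgeR called 49 (12 higher, 37 lower) or 40 (10 higher, 30 lower), with the lone library assumed to vary like the other groups. Without CD103 DC replicates 1 and 2 edgeR called 236 (134 higher, 102 lower) and 247 (135 higher, 112 lower). The edgeR fits without single libraries were chosen after seeing the data. Of 74 called named genes 0 changed sign in any alternative. Signs changed in genes not called: Ccr7 had -0.04, against 0.00035 by edgeR, 0.0040 by DESeq2 and -0.23 to 0.20 with single libraries left out. With single libraries left out the log2 fold change ranged from -0.59 to 0.997 for Prf1, -0.057 to 0.78 for Itgae, -0.40 to 0.13 for Itga4 and -0.0020 to 0.50 for Klf2. The cause of these shifts was not tested.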

Other observations

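The following called genes stand outside the lists and were picked after their values were seen, so they speak for no gene group. Brca1, a homologous recombination factor, stood at 177, 171 and 195 CPM after CD8a DC priming, against 107 and 77.6 CPM after CD11b DC priming (log2 fold change 1.04, adjusted p = 0.00468 by limma-trend). Brca2, Blm, Rad54l, Brip1 and Fignl1, which act in recombination or fork repair, had 0.81, 1.0, 1.0, 0.88 and 1.04, and Ung, the uracil glycosylase of base excision repair, had 1.16. Hsp90ab1, an abundant chaperone, stood at 4171, 3843 and 5739 CPM, against 3061 and 2607 CPM (0.73, adjusted p = 0.0111).

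Among called genes that were lower, Tet1, a DNA demethylase, stood at 43.1, 32.5 and 52.5 CPM, against 126 and 112 CPM (log2 fold change -1.45, adjusted p = 0.00347). The histone methyltransferases Kmt2a, Kmt2c and Kmt2d had -0.56, -0.94 and -0.66. Rnf213, a large ubiquitin ligase that interferons induce, stood at 196, 198 and 137 CPM, against 538 and 698 CPM (-1.76, adjusted p = 0.000217), and Macf1, a cytoskeletal crosslinker, at 1253, 1152 and 1082 CPM, against 2507 and 2651 CPM (-1.10, adjusted p = 0.000202). Length was compared over the 13631 genes with a known length and a mean normalized count of at least 10. Of the 658 longer than 8 kb 4.41% were called lower, against 1.17% of the 13631. The shares called higher were 1.52% and 1.48%. The part of transcript length in these differences was not tested.

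By the authors' deposited table, 911 of 12299 genes passed an adjusted p under 0.05 for the same comparison, with 554 higher and 357 lower in the CD8a DC group. The 374 genes called by limma-trend and the authors' deposited table shared 341, which is 91.2% of the limma-trend calls and 37.4% of the table's, and all 341 had the same direction.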
